A study of Mus musculus with 6 samples.

Results

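The genes described here build the carriers that move proteins between the endoplasmic reticulum (ER) and the Golgi apparatus, and the receptors that load cargo into them. They were listed by function as 47 genes in 7 classes, namely the COPI coat, the COPII coat with its GTPase Sar1, the organisers of ER exit sites, the p24 family, the KDEL receptors, the cargo lectins and cargo receptors, and the golgin giantin with the ARF GTPase-activating proteins. The list was proposed when results of these arrays were already known. For each gene the values of 1 probe set were used, chosen by the highest mean over all 6 arrays among probe sets annotated to a single gene, without reference to genotype. By this rule 45 of the 47 genes were measured, out of 19936 genes tested. Tmed1 and Kdelr2 had no such probe set in the annotation used and were not analysed here.

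Colon epithelium came from male C57BL/6J mice aged 8 weeks, with 3 arrays of the wild type and 3 of an enterocyte-specific Sel1L knockout (Sel1L-delta-IEC). The knockout joined a floxed Sel1l allele (Sel1ltm1e(KOMP)Wtsi with its lacZ-neo cassette removed by FLPe), in which loxP sites flank exon 6, to a Cre transgene driven by the villin-1 promoter (B6.SJL-Tg(Vil-cre)997Gum/J). The promoter limits the deletion to cells in which villin-1 is active, and the sources used here do not say whether the wild type mice carried floxed alleles or Cre, or whether each array stands for a separate mouse. The p-values therefore measure the spread between these arrays, which may be technical, and the number of arrays limits their precision. Sel1L is the partner of the ubiquitin ligase Hrd1 in ER-associated degradation, and the study asked about the stress sensor IRE1alpha as a protein that this pathway removes. Levels are given as log2 RMA values, on which a difference of 1 is a doubling of signal. A gene was called when limma's p, adjusted over all 19936 genes, was under 0.05. Changes are knockout minus wild type with the moderated standard error (SE).

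COPII-coated carriers leave the ER at exit sites. Sar1, loaded with GTP by its exchange factor Sec12 (encoded by Preb), recruits the inner coat of Sec23 and Sec24, which picks the cargo, and then the outer cage of Sec13 and Sec31. COPI-coated carriers bring escaped ER residents and recycled receptors back from the Golgi, among them chaperones that KDEL receptors bind by their C-terminal tail. In the colon this traffic serves goblet cells, which export mucin, and absorptive cells, which export transporters and brush border proteins, and several of its genes are known targets of the unfolded protein response.

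Sel1l itself read 9.45, 9.67 and 9.54 in wild type and 8.70, 9.06 and 8.66 in the knockout, a change of -0.74 ± 0.11 (adjusted p = 0.018). Every knockout array lay below every wild type array, but where the probe set lies relative to exon 6 is not known here, so the share of deleted alleles cannot be read from it. The call was lost when wild type array 1 or 2 or knockout array 1 or 3 was omitted (adjusted p up to 0.087). The 10 markers of colon epithelium averaged 11.92 to 12.07 by array and all lay above the median gene. None of them was called by limma. Against 2659 of all 19936 genes, 4 of the 10 markers had an unadjusted p under 0.05. Of these the adhesion genes Epcam (-0.23 ± 0.058, adjusted p = 0.12) and Cdh1 (-0.23 ± 0.058, adjusted p = 0.12) and the chloride exchanger gene Slc26a3 (-0.36 ± 0.10, adjusted p = 0.16) were lower in every knockout array, and the transcription factor gene Cdx2 (0.28 ± 0.088, adjusted p = 0.20) was higher in every one. Their part in the changes of the coat genes was not tested. Among markers of other cells, 1 of 8 for B and plasma cells (Sdc1, which epithelium also expresses), 1 of 10 for other immune cells and 2 of 11 for stroma, endothelium and glia lay above the median gene. In bulk tissue fewer cells of a type and less RNA per cell cannot be told apart.

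Promoters are shown here because most members that rose held a short motif in them. RefSeq promoter sequences (build GRCm38.p6, 250 bases before to 50 after a gene's start) were found for 40 of the 45 measured members and for each of the 13 called ones. The motif ACGTG, the core bound by XBP1, ATF6 and other factors of the bZIP and E-box-binding families, was present on either strand in the promoters of 11 of the 13 called members (84.6%). It was present in 11 of 27 members that were not called (40.7%) and in 24.4% of the 15614 array genes with such a promoter. The longer TGACGTG, the core of the unfolded protein response element, occurred in 4 of the 13 (Copb1, Copb2, Kdelr3 and Sec24d), in 2 of the 27 (Sec16b and Sec23a) and in 2.61% of all 15614. Every TGACGTG holds an ACGTG, so the counts overlap. Median GC content, which bears on how often such a motif occurs by composition, was 63.7% in promoters of called members, 59% in those not called and 57.3% over the array genes, and its part in these shares was not tested.

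Stretches from 140 bases before to 10 bases after the start are given for the 4 called members with TGACGTG, for Cope, whose call was among the most stable, and for Copg1 and Sar1a beside their paralogs Copg2 and Sar1b, which were not called. They run 5′ to 3′ on the strand of the gene, and capitals mark ACGTG or TGACGTG on either strand, where CACGT and CACGTCA are the same motifs read on the other strand.
Kdelr3 (chr15:79516268-79516417, plus strand): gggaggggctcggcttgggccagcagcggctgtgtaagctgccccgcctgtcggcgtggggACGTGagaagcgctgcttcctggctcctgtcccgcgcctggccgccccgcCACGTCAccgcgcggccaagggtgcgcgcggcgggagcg
Sec24d (chr3:123267356-123267505, plus strand): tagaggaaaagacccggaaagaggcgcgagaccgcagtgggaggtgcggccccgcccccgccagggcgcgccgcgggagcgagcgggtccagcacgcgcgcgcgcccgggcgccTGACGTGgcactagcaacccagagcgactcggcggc
Copb1 (chr7:114254671-114254820, minus strand): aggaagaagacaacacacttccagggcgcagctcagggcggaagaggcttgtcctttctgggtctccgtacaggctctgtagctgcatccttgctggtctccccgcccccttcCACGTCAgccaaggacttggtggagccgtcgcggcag
Copb2 (chr9:98563591-98563740, plus strand): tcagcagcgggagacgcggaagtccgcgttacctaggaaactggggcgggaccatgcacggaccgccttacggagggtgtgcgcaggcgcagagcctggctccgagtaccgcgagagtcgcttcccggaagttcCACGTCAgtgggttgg
Cope (chr8:70302627-70302776, plus strand): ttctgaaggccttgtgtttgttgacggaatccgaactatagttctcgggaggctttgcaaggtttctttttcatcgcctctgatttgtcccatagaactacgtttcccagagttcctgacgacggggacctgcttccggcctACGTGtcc
Copg1 (chr6:87887800-87887949, plus strand): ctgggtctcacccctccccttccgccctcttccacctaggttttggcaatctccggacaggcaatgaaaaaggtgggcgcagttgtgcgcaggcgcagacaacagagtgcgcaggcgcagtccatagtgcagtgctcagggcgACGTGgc
Copg2 (chr6:30896785-30896934, minus strand): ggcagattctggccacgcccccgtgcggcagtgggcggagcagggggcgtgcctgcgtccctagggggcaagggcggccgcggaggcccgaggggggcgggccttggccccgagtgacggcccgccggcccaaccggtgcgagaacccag
Sar1a (chr10:61680145-61680294, plus strand): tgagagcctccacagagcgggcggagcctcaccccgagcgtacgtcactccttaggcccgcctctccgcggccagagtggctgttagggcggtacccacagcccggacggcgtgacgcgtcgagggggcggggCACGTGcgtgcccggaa
Sar1b (chr11:51763523-51763672, plus strand): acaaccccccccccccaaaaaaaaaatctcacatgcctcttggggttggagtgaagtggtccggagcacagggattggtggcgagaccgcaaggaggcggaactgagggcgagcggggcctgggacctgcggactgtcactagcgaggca
In Kdelr3 and Sec24d the longer motif began 29 and 26 bases before the start, in Copb1 27 bases and in Copb2 6 bases before it. The only ACGTG in Cope and in Copg1 lay after the start, beginning at base 3 and base 4. Sar1a carried the palindrome CACGTG from 7 bases before the start. Mcfd2, which was called, carried it from 73 bases and Tmed10, which was not called, from 11 bases before the start. Copg2 and Sar1b held no ACGTG anywhere in their 300 bases, nor did Kdelr1. Other paralogs of called members that were not called did hold ACGTG, namely Copz1, Sec16b, Sec24a, Sec24b and Sec24c. The promoters of Copa and Preb, which were called, held no ACGTG. The ER stress elements ERSE (CCAAT and CCACG with 9 bases between them) and ERSE-II (ATTGG and CCACG with 1 base between them) were absent from all 40 in these exact letters, against 0.134% and 0.0576% of array genes, and the ATF4 composite core TGATGNAA occurred only in Kdelr1 (1 of 40, against 3.62% of array genes), which was not called. A match describes these letters in this window and is not a measured binding site.

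Of the 45 measured members, 13 rose in the knockout (28.9%) and none fell. Over all 19936 genes limma called 0.918% higher and 0.712% lower. These shares include dim genes, whereas 44 of the 45 members lay above the median gene. Without the dimmest 50% of genes, limma called 598 of the remaining 9968 genes, counted over both directions together. Of the 44 remaining members it called 22 higher and 1 lower. The median change was 0.26 over the members and 0.019 over all genes. The change was positive in 38 of 45 members (84.4%), as in 57.2% of all genes. In 29 members (64.4%) every knockout array lay above every wild type array, as in 11.4% of all genes, and in 2 members (Sec16b and Ergic3) every knockout array lay below, as in 7.98% of all genes. Both had an unadjusted p under 0.05 without being called. The largest rise was 1.85-fold (Kdelr3). Many calls were lost when 1 array was omitted, which also lowered the number of all genes called from 325 to between 69 and 303. Only 3 members were called when array 1 or 2 of either genotype was omitted, against 11 without wild type array 3 and 6 without knockout array 3. The median change stayed between 0.24 and 0.27 in these 6 fits.

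**Figure D1:**
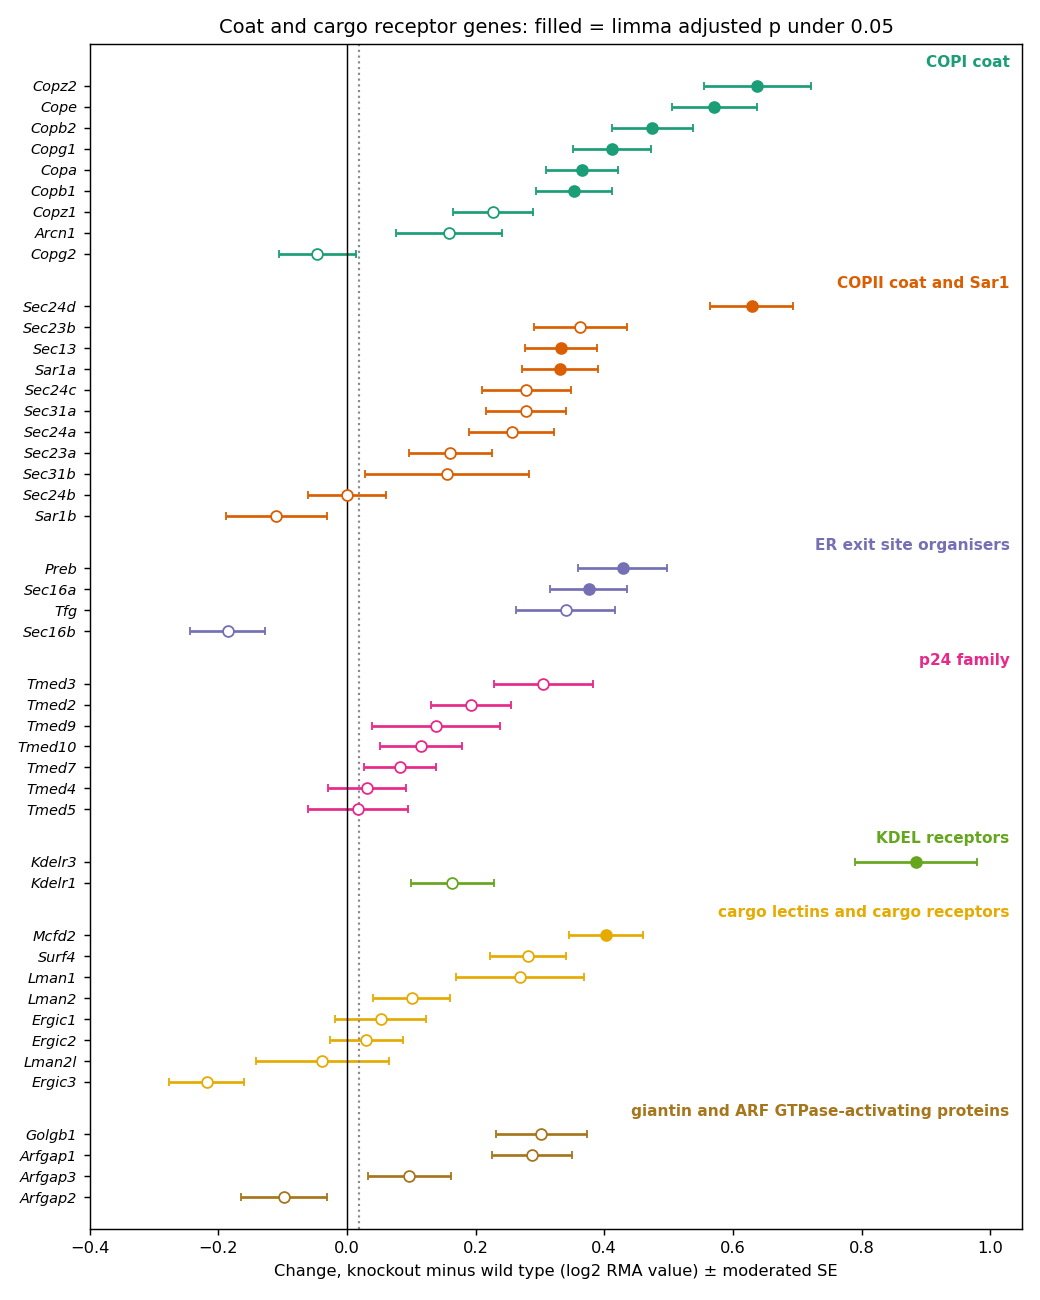
Change of each measured member (knockout minus wild type, log2 RMA value, x axis) with its moderated SE, grouped by class (y axis). Filled points were called by limma at an adjusted p under 0.05, the dotted line is the median of all genes (0.019), and the filled points lie between 0.33 (Sar1a) and 0.88 (Kdelr3).

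Of the 9 genes of the COPI coat 6 rose (66.7%, against 0.918% of all genes), and the median change was 0.37. The 6 encode alpha-COP (Copa), beta-COP (Copb1), beta-prime-COP (Copb2), gamma-1-COP (Copg1), epsilon-COP (Cope) and zeta-2-COP (Copz2), which come from both the cage-like outer layer and the adaptor-like inner layer of this coat. The remaining subunits, delta-COP (Arcn1), zeta-1-COP (Copz1) and gamma-2-COP (Copg2), were not called.

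Cope read 10.47, 10.54 and 10.65 in wild type and 11.15, 11.09 and 11.13 in the knockout, a change of 0.57 ± 0.066 or 1.49-fold (adjusted p = 0.0080). Copz2 read 8.02, 8.07 and 8.22 against 8.83, 8.78 and 8.60, a change of 0.64 ± 0.083 or 1.56-fold (adjusted p = 0.012). In both genes the lowest knockout array stood clear of the highest wild type array, by more than the range within either genotype. Copb2 read 10.18, 10.21 and 10.25 in wild type and 10.75, 10.71 and 10.61 in the knockout (0.47 ± 0.062, adjusted p = 0.012). Copg1 read 10.03, 10.07 and 10.12 in wild type and 10.47, 10.44 and 10.54 in the knockout (0.41 ± 0.061, adjusted p = 0.017). Both were higher in every knockout array. Copa, the largest subunit and a bright probe set, read 11.51, 11.47 and 11.49 against 11.89, 11.85 and 11.84 (0.37 ± 0.055, adjusted p = 0.019). Copb1 read 10.36, 10.38 and 10.43 against 10.79, 10.71 and 10.72 (0.35 ± 0.059, adjusted p = 0.026). The SD of Copa was 0.019 in wild type and 0.026 in the knockout (n = 3 each), far below its difference.

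Among subunits that were not called, Copz1 read 10.70, 10.82 and 10.82 in wild type and 11.05, 10.99 and 10.99 in the knockout, without overlap (0.23 ± 0.062, adjusted p = 0.15). Arcn1 read 9.66, 9.92 and 9.79 against 10.04, 9.95 and 9.86, where wild type array 2 lay inside the knockout range (0.16 ± 0.083, adjusted p = 0.47). Copg2 read 9.58, 9.65 and 9.66 against 9.63, 9.59 and 9.53 and overlapped (-0.046 ± 0.060, adjusted p = 0.81, 95% interval -0.18 to 0.091). Cope was called whichever single array was omitted (adjusted p at most 0.048). Copb2 and Copz2 lost it without wild type array 1 or 2 or knockout array 1 or 2 (adjusted p up to 0.060 and 0.059), and Copa, Copb1 and Copg1 lost it without any array but wild type array 3 (adjusted p up to 0.088, 0.12 and 0.080).

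**Figure D2:**
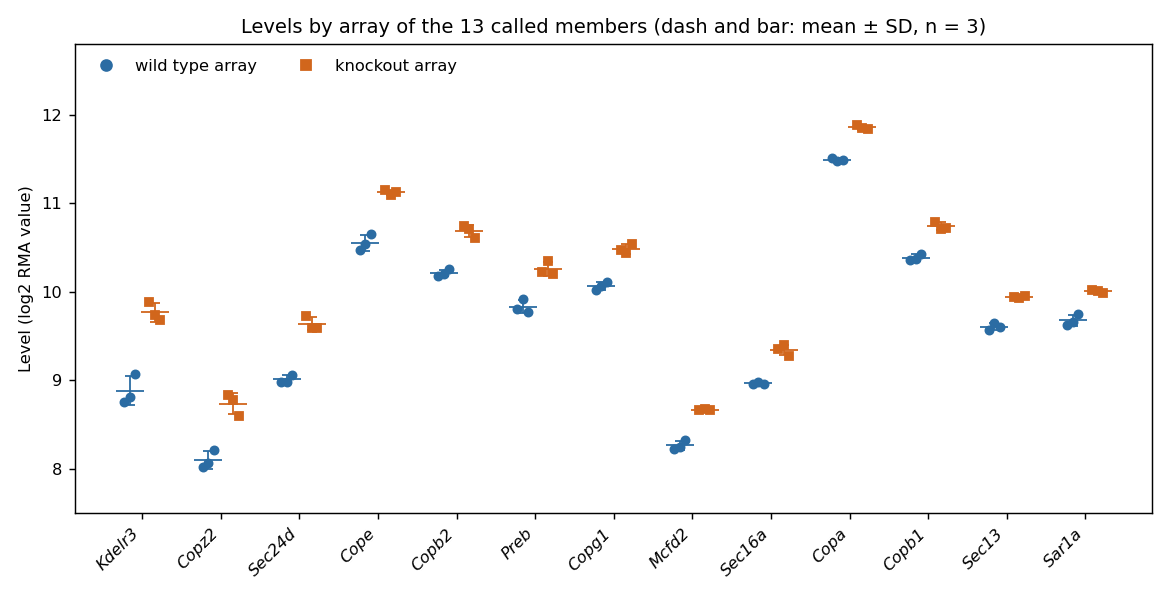
Level (log2 RMA value, y axis) of the 13 called members in each array, with wild type as blue circles and knockout as orange squares, and with the mean and SD of 3 arrays as a dash and bar. In each gene the 3 knockout arrays lie above the 3 wild type arrays, with the widest gap in Kdelr3. Heights of different genes come from different probe sets and are not comparable.

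Of 11 genes for the coat and Sar1, 3 rose (27.3%, against 0.918% of all genes), with a median change of 0.28. In 8 of the 11 every knockout array was higher (72.7%, against 11.4% of all genes). The called genes were Sec24d, a cargo-binding subunit of the inner coat, Sec13 of the outer cage, which is also a nuclear pore protein, and the GTPase gene Sar1a. Sec24d read 8.99, 8.98 and 9.06 in wild type and 9.73, 9.60 and 9.60 in the knockout, a change of 0.63 ± 0.064 or 1.55-fold (adjusted p = 0.0064), and was called whichever array was omitted (adjusted p at most 0.038). Sec13 read 9.57, 9.65 and 9.60 against 9.94, 9.93 and 9.95 (0.33 ± 0.056, adjusted p = 0.028). Sar1a read 9.63, 9.66 and 9.74 against 10.03, 10.01 and 9.99 (0.33 ± 0.059, adjusted p = 0.035). Neither of the last 2 overlapped between genotypes, but Sec13 was no longer called when any single array was omitted (adjusted p up to 0.12), nor was Sar1a for any but wild type array 3 (up to 0.14).

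Several further coat genes were higher in every knockout array without passing the test. Sec23b, an inner coat subunit, read 10.21, 10.34 and 10.22 against 10.70, 10.65 and 10.51 and lay just outside the threshold (0.36 ± 0.072, adjusted p = 0.054). Sec31a of the outer cage read 10.98, 11.00 and 10.96 against 11.27, 11.33 and 11.17 (0.28 ± 0.063, adjusted p = 0.081). Sec24a differed by 0.26 ± 0.066 (adjusted p = 0.12), Sec24c by 0.28 ± 0.069 (adjusted p = 0.11) and Sec23a by 0.16 ± 0.065 (adjusted p = 0.33). Sec24b and Sar1b showed no such shift. Sec24b read 8.96, 9.08 and 9.02 against 8.99, 9.05 and 9.01 (-0.00016 ± 0.061, 95% interval -0.14 to 0.14), and Sar1b read 10.06, 10.10 and 9.88 against 9.94, 9.96 and 9.81 (-0.11 ± 0.079, 95% interval -0.29 to 0.071). Sec31b, a paralog of Sec31a, was the only member below the median gene, at 5.57, 5.09 and 5.44 against 5.36, 5.53 and 5.67 (0.16 ± 0.13, adjusted p = 0.68), and its arrays overlapped widely.

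At ER exit sites, 2 of 4 organisers rose, against 0.918% of all genes. Preb, which encodes the Sar1 exchange factor Sec12, read 9.80, 9.92 and 9.78 in wild type and 10.23, 10.35 and 10.20 in the knockout (0.43 ± 0.070, adjusted p = 0.025). Sec16a, the main scaffold of these sites, read 8.96, 8.98 and 8.96 against 9.35, 9.40 and 9.28 (0.38 ± 0.059, adjusted p = 0.022). Both were higher in every knockout array, and the wild type arrays of Sec16a lay within 0.024 of each other. Preb was not called once any array was omitted (adjusted p up to 0.10), and Sec16a was called only when knockout array 3 was the one omitted (up to 0.097 otherwise). Tfg, which joins neighbouring carriers, read 9.9998, 10.17 and 10.06 against 10.49, 10.46 and 10.29 (0.34 ± 0.076, adjusted p = 0.081). Sec16b, the shorter Sec16 protein, went the other way, at 8.36, 8.32 and 8.34 against 8.10, 8.20 and 8.17. All 3 knockout arrays lay below the wild type arrays, but the change of -0.19 ± 0.058 was not called (adjusted p = 0.20).

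The p24 proteins cycle between ER and Golgi in heteromeric complexes, bind coat proteins of both kinds by their short tails and help export GPI-anchored proteins. None of the 7 measured was called by limma, and the median change was 0.12. An unadjusted p under 0.05 was reached by 2 of the 7 (Tmed2 and Tmed3), against 2659 of all 19936 genes. All 7 changes were positive, against 57.2% of all genes. In 4 of the 7 genes every knockout array was higher (57.1%, against 11.4% of all genes). Tmed3 read 8.52, 8.57 and 8.76 in wild type and 8.98, 8.90 and 8.90 in the knockout (0.31 ± 0.076, adjusted p = 0.11). Tmed2, the sole member of the beta subfamily, read 11.57, 11.63 and 11.68 against 11.88, 11.81 and 11.76 (0.19 ± 0.062, adjusted p = 0.22), and its 3 probe sets gave changes of 0.19, 0.20 and 0.21. Whether these probe sets also bind copies of the gene elsewhere was not tested. Tmed10, the sole member of the delta subfamily, read 10.85, 10.94 and 10.93 against 11.09, 11.02 and 10.96 (0.12 ± 0.063, 95% interval -0.029 to 0.26), and a second probe set gave 0.12. In the probe sets used for these genes every knockout array lay above the wild type arrays by small steps, but in the second probe set of Tmed10 the genotypes overlapped, at 8.44, 8.71 and 8.69 against 8.80, 8.67 and 8.73.

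Tmed7 read 11.46, 11.49 and 11.51 against 11.60, 11.56 and 11.55, a difference of 0.082 ± 0.056 in which the genotypes did not overlap although the 95% interval ran from -0.046 to 0.21. Tmed9 (0.14 ± 0.099), Tmed4 (0.032 ± 0.061) and Tmed5 (0.017 ± 0.078) overlapped between genotypes. Averaged over the genes of a class and set against the wild type mean, COPI stood at 0.40, 0.34 and 0.31 in knockout arrays 1, 2 and 3, the COPII coat with Sar1 at 0.25, 0.28 and 0.21, the exit site organisers at 0.24, 0.30 and 0.18 and the p24 family at 0.19, 0.11 and 0.079. The wild type arrays lay between -0.073 and 0.059 for these 4 classes. In each knockout array the p24 mean was thus below that of both coats, a difference between classes that was not tested. It was not alone in this range. Cargo lectins and cargo receptors stood at 0.14, 0.12 and 0.067, and giantin with the ARF GTPase-activating proteins at 0.11, 0.22 and 0.11. The KDEL receptors stood at 0.61, 0.49 and 0.47.

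KDEL receptors return soluble ER proteins, such as BiP and the disulfide isomerases, from the Golgi. Kdelr3 had the largest change of all members, at 8.76, 8.82 and 9.07 in wild type and 9.88, 9.74 and 9.68 in the knockout, or 0.88 ± 0.095 (1.85-fold, adjusted p = 0.0065, 95% interval 0.67 to 1.10). Wild type array 3 was the highest of its group by 0.26, yet it remained below the lowest knockout array, and the call held whichever array was omitted (adjusted p at most 0.039). Kdelr1 read 10.41, 10.53 and 10.55 against 10.72, 10.62 and 10.64, higher in every knockout array but not called (0.16 ± 0.065, adjusted p = 0.32).

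Cargo receptors were mixed. Of 8 genes 1 rose (12.5%, against 0.918% of all genes). It was Mcfd2, the calcium-binding partner of the lectin encoded by Lman1, with which it exports coagulation factors and other glycoproteins. Mcfd2 read 8.23, 8.24 and 8.33 in wild type and 8.67, 8.68 and 8.66 in the knockout (0.40 ± 0.058, adjusted p = 0.016). Its knockout arrays lay within 0.017 of each other, and the call was lost without any array but wild type array 3 (adjusted p up to 0.075). Lman1 itself read 10.13, 10.27 and 10.41 against 10.72, 10.47 and 10.42, where the lowest knockout array exceeded the highest wild type array by only 0.013 (0.27 ± 0.10, adjusted p = 0.29). Surf4, a receptor for soluble secreted proteins, read 10.92, 10.93 and 11.00 against 11.26, 11.19 and 11.25 (0.28 ± 0.059, adjusted p = 0.064). The lectin genes Lman2 (0.10 ± 0.060) and Lman2l (-0.039 ± 0.10) overlapped between genotypes.

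Ergic1, Ergic2 and Ergic3 encode membrane proteins of the compartment between ER and Golgi. Ergic3 was lower in every knockout array, at 10.59, 10.57 and 10.62 against 10.36, 10.43 and 10.33, a change of -0.22 ± 0.058 that was not called (adjusted p = 0.14), while Ergic1 (0.053 ± 0.071) and Ergic2 (0.030 ± 0.056) overlapped. Among Golgi partners of the COPI coat, none of 4 was called by limma. Against 2659 of all 19936 genes, 2 of the 4 had an unadjusted p under 0.05. Golgb1, which encodes the tether giantin, read 9.06, 9.09 and 9.10 against 9.34, 9.51 and 9.30 (0.30 ± 0.071, adjusted p = 0.094). Arfgap1, whose product drives GTP hydrolysis by ARF1 and release of the coat, read 9.69, 9.67 and 9.77 against 9.93, 10.03 and 10.03 (0.29 ± 0.062, adjusted p = 0.069). Both were higher in every knockout array, whereas its paralogs Arfgap2 (-0.098 ± 0.067) and Arfgap3 (0.097 ± 0.064) overlapped.

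Paralogs within a family were compared next. For each of 21 pairs within a family, the log2 difference between both probe sets was taken within each array and compared between genotypes. In 16 pairs the genotypes did not overlap, with an exact two-sided permutation p of 0.1, which is the smallest that 3 arrays against 3 allow, and 0.13 after Benjamini-Hochberg adjustment over the 21 pairs, so no pair could pass 0.05. Pairs that share a gene, such as those with Sec24d, are not independent. No share over other gene pairs was computed to set beside the 16. Of all single genes, 11.4% had every knockout array above and 7.98% every knockout array below the wild type arrays. The difference within a pair is a ratio of probe sets and says nothing of which paralog is more abundant.

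The widest difference was between Kdelr3 and Kdelr1, where the change of Kdelr3 exceeded that of Kdelr1 by 0.72. The change of Sec24d exceeded that of Sec24b by 0.63, that of Sec24a by 0.37 and that of Sec24c by 0.35. Sec24a and Sec24c differed in change by 0.023 and overlapped. Sec24A with Sec24B and Sec24C with Sec24D form subfamilies that accept different export signals, and the change of Sec24a exceeded that of its close relative Sec24b by 0.26. Sec16a exceeded Sec16b in change by 0.56, Copg1 exceeded Copg2 by 0.46, Sar1a exceeded Sar1b by 0.44 and Copz2 exceeded Copz1 by 0.41. Within each of these pairs all 3 knockout arrays lay beyond the wild type arrays. Arfgap1 exceeded Arfgap2 by 0.39, and Sec23b exceeded Sec23a by 0.20, with knockout array 1 farthest from wild type. In the p24 gamma subfamily Tmed3 exceeded Tmed5 by 0.29 and Tmed7 by 0.22, both without overlap. The pairs Lman2 with Lman2l, Sec31a with Sec31b, Tmed9 with Tmed4 and Tmed7 with Tmed5 overlapped between genotypes.

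**Figure D3:**
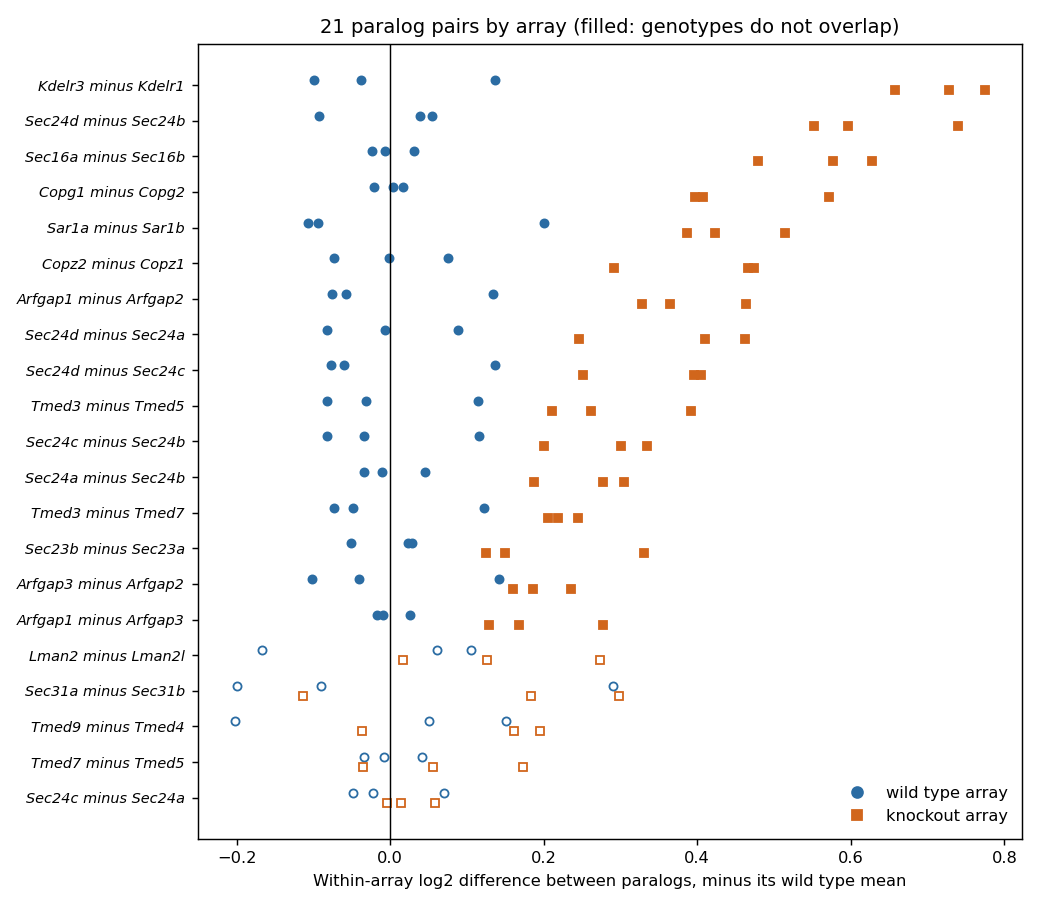
Within-array log2 difference between paralogs, shown relative to its wild type mean (x axis), for 21 pairs (y axis) in each wild type (blue circles) and knockout array (orange squares). Each pair is written with the paralog of the larger change first, filled points mark the 16 pairs without overlap, and the shift runs from 0.72 (Kdelr3 minus Kdelr1) to 0.023 (Sec24c minus Sec24a).

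Other genes of the same route were taken from lists drawn up by function. Counts called in these lists stand beside 0.918% of all genes called higher and 0.712% called lower. Among the SNARE proteins that fuse ER and Golgi carriers and their helpers, all 15 changes were positive, against 57.2% of all genes. Their median was 0.19, and 5 of the 15 genes rose. They were the Golgi SNARE genes Gosr2 (0.55 ± 0.077) and Stx5a (0.39 ± 0.072), the vesicle SNARE genes Bet1 (0.63 ± 0.12) and Sec22b (0.45 ± 0.069), and Scfd1 (0.44 ± 0.060), whose product controls syntaxin 5. Gosr2, Stx5a, Bet1 and Sec22b encode members that assemble into fusion complexes on this route. Omitting 1 array ended the call of Stx5a in all 6 cases, that of Bet1 in all but the omission of wild type array 2, and that of the other three in all but the omission of the array numbered 3 of either genotype, and adjusted p reached 0.16.

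In the list of tethers with the TRAPP and COG complexes 1 of 28 rose, Uso1 (0.41 ± 0.061), which encodes the carrier tether known as general vesicular transport factor, with a median of 0.072. Its call depended on both genotypes' arrays 1 and 2, without any of which adjusted p reached up to 0.084. Golga2, which encodes the Golgi partner of this tether, was not called at 0.36 ± 0.080 (adjusted p = 0.079). Among ARF GTPases and their exchange factors 1 of 9 rose, Arf4 (0.34 ± 0.065, median of the list 0.070), while Gbf1, the exchange factor for ARF1 at the early Golgi, was not called at 0.30 ± 0.063 (adjusted p = 0.065), nor was Arf1 at 0.23 ± 0.056 (adjusted p = 0.10). No omission of an array left Arf4 called (adjusted p up to 0.17).

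Among other export and retrieval factors 2 of 14 rose and 1 fell, with a median of 0.032. Mia3, which encodes TANGO1, the exit site receptor for collagen and other bulky cargo, rose by 0.56 ± 0.072 (adjusted p = 0.011), and lost the call without wild type array 1 or 2 or knockout array 1 (adjusted p up to 0.055). Yipf5, a Golgi membrane protein gene, rose by 0.37 ± 0.071, and Cnih4, a cornichon cargo receptor gene, changed by -0.29 ± 0.057 (adjusted p = 0.049). Neither was called once any array was omitted (adjusted p up to 0.16 and 0.18).

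Coats that act beyond this route were examined too. No gene was called by limma, nor had an unadjusted p under 0.05, among 14 clathrin, AP-1 and GGA genes of the trans-Golgi network (median -0.0042, changes from -0.13 to 0.092) or among 8 genes of the retromer and its sorting nexins (median -0.034). Cltc, the clathrin heavy chain gene, differed by 0.080 ± 0.058. Averaged by array, the clathrin list stood between -0.0042 and 0.0085 in the knockout arrays.

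Against 0.918% of all genes, 3 of 8 transcription factor genes that act on secretory genes rose. They were Creb3l2 (0.74 ± 0.093), known for driving Sec23a in cartilage, Creb3 (0.47 ± 0.066) and Atf6 (0.46 ± 0.061). Xbp1 was not called at 0.25 ± 0.061 (adjusted p = 0.10), and the array does not separate its spliced form. Creb3l2 lost its call without knockout array 1 (adjusted p = 0.052), and Creb3 and Atf6 did so when array 1 or 2 of either genotype was omitted (adjusted p up to 0.069 and 0.063).

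**Figure D4:**
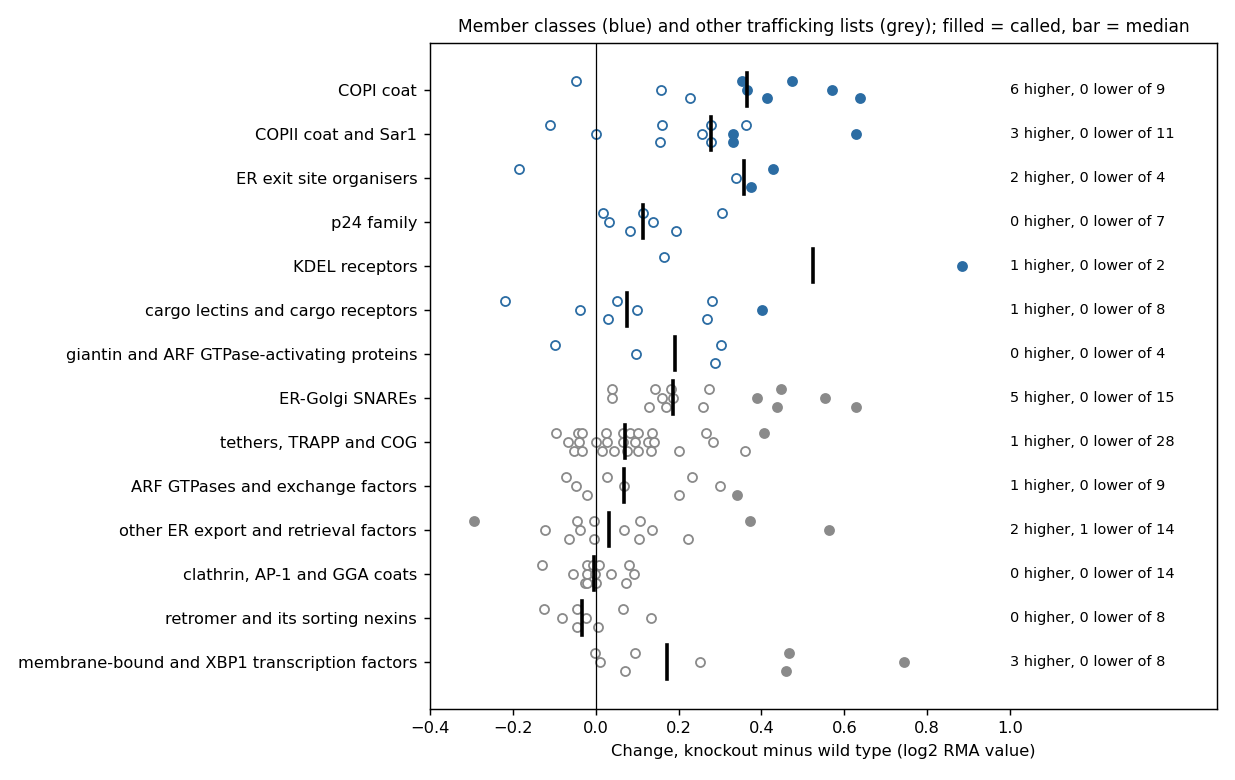
Change of each gene (knockout minus wild type, log2 RMA value, x axis) in the 7 member classes (blue) and 7 further lists (grey, y axis), with filled points called by limma, a bar at the median and the counts called at the right. Medians run from 0.52 for the 2 KDEL receptors and 0.37 for COPI to -0.034 for the retromer.

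Goblet cells, the main secretory cells of this epithelium, were followed by 7 markers. None was called by limma and 1 of the 7 had an unadjusted p under 0.05, against 2659 of all 19936 genes. It was Spdef, a goblet cell transcription factor gene (0.28 ± 0.072, adjusted p = 0.12). Muc2, the main mucin gene, was added after its value was seen and differed by -0.040 ± 0.055. Every knockout array was higher in 2 of the 7 genes and lower in 1 (Muc2), as in 11.4% and 7.98% of all genes. Averaged against the wild type mean, the list stood at -0.043, -0.0092 and 0.052 in the wild type arrays and at 0.057, 0.10 and 0.039 in the knockout arrays, which overlap. The B and plasma cell markers averaged 5.63 to 5.85 in the wild type arrays and 5.61 to 5.70 in the knockout arrays, below the median gene in 7 of 8 genes, with Jchain at 3.80, 4.07 and 4.06 and 3.80, 3.89 and 3.78. The part of goblet cells in the changes of coat genes was not tested.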

How the data were processed

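The deposited values are log2 signals made by the authors with RMA, per the submitters' processing notes. That they are log2 follows from their range. The version of RMA and the probe set definition were not stated in the sources read. Array medians lay between 6.32 and 6.36, and no further normalization or pseudocount was applied. Of 35556 probe sets 21789 named a single gene in GEO's platform annotation, and symbols were updated through RefSeq (GRCm38.p6), which gave 19936 genes. Each gene was fitted in R 4.3.3 by limma 3.58.1 with a single genotype term (functions lmFit and eBayes), p-values were adjusted by Benjamini-Hochberg over all genes, and the fit was tested on simulated data. Paralog pairs were tested by an exact two-sided permutation test. Replicate numbers were not used to pair the arrays. Deviations of same-numbered arrays correlated at -0.10, 0.15 and 0.15, and those of arrays with different numbers at -0.26 to 0.12. With 3 arrays of each genotype these values cannot decide whether the arrays were paired. The members, lists, paralog pairs and alternatives were chosen with earlier results of these data known. Alternatives covered the replicate block, quantile normalization and median centring, filters on dim genes, the variance prior, array weights, averaging over probe sets and leaving out each array. All measured members could be named, and from each further list the called genes and up to 3 with the smallest p, to which Xbp1, Muc2 and Cdx2 were added after their values were seen. Promoters were searched for exact letters on both strands.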

Additional observations from a re-analysis of the deposited data

How the results depend on the processing

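The median change of the members lay between 0.23 and 0.27 under all alternatives, and Cope, Sec24d and Kdelr3 were called under each of them. Counts of calls moved more. Of all genes, 325 were called, against 598 without the dimmest 50% of genes, 614 with an intensity trend in the variance prior and 69 to 303 with 1 array left out. Members called higher numbered 13, against 22 without the dimmest 50%, 22 with the trend and 3 to 11 with 1 array left out. With the replicate block, a pairing that could not be decided here, 8 members were called. Copa (adjusted p = 0.058), Copb1 (0.076), Sec13 (0.079), Sar1a (0.093) and Sec16a (0.059) were then not called. Under both the 50% filter and the trend 1 member was called lower (Ergic3, adjusted p = 0.045 and 0.033). Median centring ended the call of Sar1a (adjusted p = 0.052). Signs changed only among members that were not called and in 1 paralog pair. Sec24b was at 0.0017 after quantile normalization, 0.0069 with array weights and -0.031 to 0.032 with 1 array left out. Tmed5 was at -0.0044 after median centring and -0.048 to 0.082 with 1 array left out, and Lman2l at -0.12 to 0.061. The change of Sec24a minus that of Sec24c ran from -0.058 to 0.0015. Beyond what the alternatives changed by construction, causes were not tested. Sec31b was the sole member below the median gene, and had the largest SE among the members (0.13). No background estimate was used here.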

Other observations

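Sec24a and Sar1b start 6829 bases apart on opposite strands of chromosome 11 with no annotated gene between them in the RefSeq table (GRCm38.p6). Their changes were 0.26 ± 0.066 and -0.11 ± 0.079, and neither was called by limma (adjusted p = 0.12 and 0.62).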
